A study of Triticum dicoccoides with 12 samples.

Results

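Of 61115 probe sets that are no array controls, 7 (0.0115%) passed a signal threshold only in droughted plants of the drought-resistant wild emmer genotype Y12-3. A probe set is a group of short oligonucleotides on the array that together measure 1 transcript or a few similar ones. The 7 were chosen by their signals: at least 258 on all 3 arrays of droughted Y12-3 and below 129 on all 9 other arrays. A signal below 129 does not show that a transcript is absent. The rule used all 12 arrays, so the levels of these probe sets and their contrasts with the droughted Y12-3 arrays are given as a description, without a test.

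The series compared leaf-like organs (phyllome, as the labels put it) of 2 genotypes of wild emmer, Triticum turgidum subsp. dicoccoides, at 10 weeks of age in reproductive growth. The groups were the drought-resistant genotype Y12-3 under terminal drought (R drought), Y12-3 kept well-watered (R watered), the drought-susceptible genotype A24-39 under terminal drought (S drought) and well-watered A24-39 (S watered), with 3 arrays each. Each class of drought tolerance is represented by 1 genotype, so a difference between R and S cannot be told apart from any other difference between these lines. Nothing in the labels tells whether replicate arrays stand for different plants, so the p-values reflect how far these arrays scatter, and that scatter may be technical.

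Wild emmer is the tetraploid wild progenitor of durum and bread wheat. Terminal drought is water shortage during flowering and grain filling, when leaves close their stomata, lose photosynthetic capacity and move carbon and nitrogen to the grain. Transcripts that appear under such stress commonly encode protective proteins such as dehydrins, enzymes of osmolyte synthesis, or proteins of senescence. In bulk tissue, fewer cells that make a transcript and less RNA of it per cell cannot be told apart.

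None of the 7 probe sets is paired with a gene in the array's annotation, which names a gene for 1273 of the 61115. They are therefore given by their probe set names, with no role attached. Of the marker genes for leaf photosynthesis, the Rieske protein transcript petC gave 10878 to 68748 signal over the 12 arrays on the brighter of its 2 probe sets. The other stayed at 2.42 to 51.4. For FBP and GAPN, enzymes that act on fructose bisphosphate and glyceraldehyde phosphate, 1 probe set each was above 129 on every array. A second FBP probe set reached 129 on only 2 arrays. The lowest signals of the 3 brighter probe sets were all in R drought, at 10878 for petC, 472 for FBP and 224 for GAPN. Because the 7 carry no gene name, they could not be set against marker lists. The annotation holds 3 of 13 listed genes of photosynthesis, 0 of 11 of grain and spike, 0 of 3 of root, 1 of 7 of drought and cold response, 3 of 5 of defence and 1 of 4 of sugar metabolism. The drought and cold gene is the dehydrin gene COR410, which stayed below 129 on all 12 arrays.

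The level of 129 is the 95th percentile of 276 values from 23 control probe sets that target no wheat transcript. Their median was 18.7 and their highest value 349.8. No control or reporter probe set met the rule in any group. The median signal of an array was 58.6 to 79.5 in R drought, 78.1 to 152 in R watered, 76.5 to 78.0 in S drought and 73.0 to 81.3 in S watered. Hybridization controls, which are added in equal amount to every array, had a geometric mean of 5761 to 8297 in R drought, 8189 to 19797 in R watered, 8761 to 11488 in S drought and 8852 to 12961 in S watered. The controls were dimmest on an R drought array, and R watered replicate 3 stood apart with 33051 probe sets at or above 129 against 21853 to 27348 on the other arrays. The counts below are also given with the arrays rescaled and with single arrays left out.

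One probe set stood far above the other 6. TaAffx.37150.1.S1_at had 7349, 4246 and 5069.7 signal in R drought, against 5.65, 15.8 and 44.2 in R watered, 77.1, 77.3 and 96.0 in S drought, and 111, 58.9 and 19.4 in S watered. That its 3 R drought arrays lay above the 9 others without overlap was fixed by the rule, as for the other 6. The mean of TaAffx.37150.1.S1_at in R drought was 5555 ± 1608 (SD, n = 3), at least 41.9-fold above each of the other 3 groups. For this and the later fold bounds, every signal below 129 in the other groups was raised to 129 before the log2 means were compared. They are thus ratios of geometric means and not of the printed means. On the same floor its dimmest R drought array was at least 32.9 times every other array.

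A pair of probe sets followed with signals near 1000 in R drought. TaAffx.106262.1.S1_at had 1921, 835 and 945 in R drought, against 56.9, 55.9 and 39.1 in R watered, 57.8, 6.04 and 26.1 in S drought, and 31.3, 5.99 and 4.36 in S watered. Replicate 1 of R drought was the highest, and the other 9 arrays stayed far below 129. Its mean of 1234 ± 598 in R drought (SD, n = 3) was at least 8.9-fold above each other group. Ta.5854.1.A1_at had 1531, 793 and 898 in R drought, against 54.8, 1.66 and 19.9 in R watered, 47.2, 3.94 and 7.6 in S drought, and 15.4, 3.89 and 59.6 in S watered. The order of its R drought arrays was the same, with replicate 1 on top and replicate 2 lowest. Its mean of 1074 ± 399 was at least 7.98-fold above each other group. With other signals raised to 129, their dimmest R drought arrays were at least 6.47 and 6.15 times every other array.

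The next 2 had their lowest R drought signal in replicate 1. TaAffx.34202.1.S1_x_at had 600.2, 876 and 874 in R drought, against 10.2, 33.1 and 103 in R watered, 38.3, 60.4 and 16.1 in S drought, and 15.9, 25.7 and 82.1 in S watered. The ending _x_at marks a probe set in which some probes can also bind other transcripts. Its mean was 784 ± 159 in R drought (SD, n = 3), at least 5.98-fold above each other group. TaAffx.111048.1.S1_at had 388, 712 and 856 in R drought, against 118, 17.0 and 32.9 in R watered, 54.5, 44.9 and 95.8 in S drought, and 15.5, 13.6 and 5.44 in S watered. Its 3 S drought arrays lay above its 3 S watered arrays, all of them below the control level of 129. Its mean of 652 ± 240.1 in R drought was at least 4.79-fold above each other group.

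The last 2 lay close to the thresholds. Ta.1883.1.S1_s_at had 592, 606 and 306 in R drought, against 66.7, 44.5 and 36.8 in R watered, 102, 51.7 and 16.8 in S drought, and 4.57, 16 and 7.92 in S watered. The ending _s_at marks probes shared by transcripts of more than 1 gene, so this signal need not come from a single gene. Ta.12202.1.A1_at had 338, 265 and 303 in R drought, against 64.5, 45.6 and 16.9 in R watered, 91.0, 35.8 and 125 in S drought, and 13.6, 89.0 and 20.8 in S watered. Replicate 3 of S drought came within a few units of the lower threshold. The means in R drought were 502 ± 169 and 302 ± 36.7 (SD, n = 3), at least 3.71-fold and 2.33-fold above each other group. Ta.12202.1.A1_at stayed below 349.8, the highest control value, on all 3 R drought arrays, and Ta.1883.1.S1_s_at did so on replicate 3. The other 5 exceeded it on all 3 R drought arrays.

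**Figure D1:**
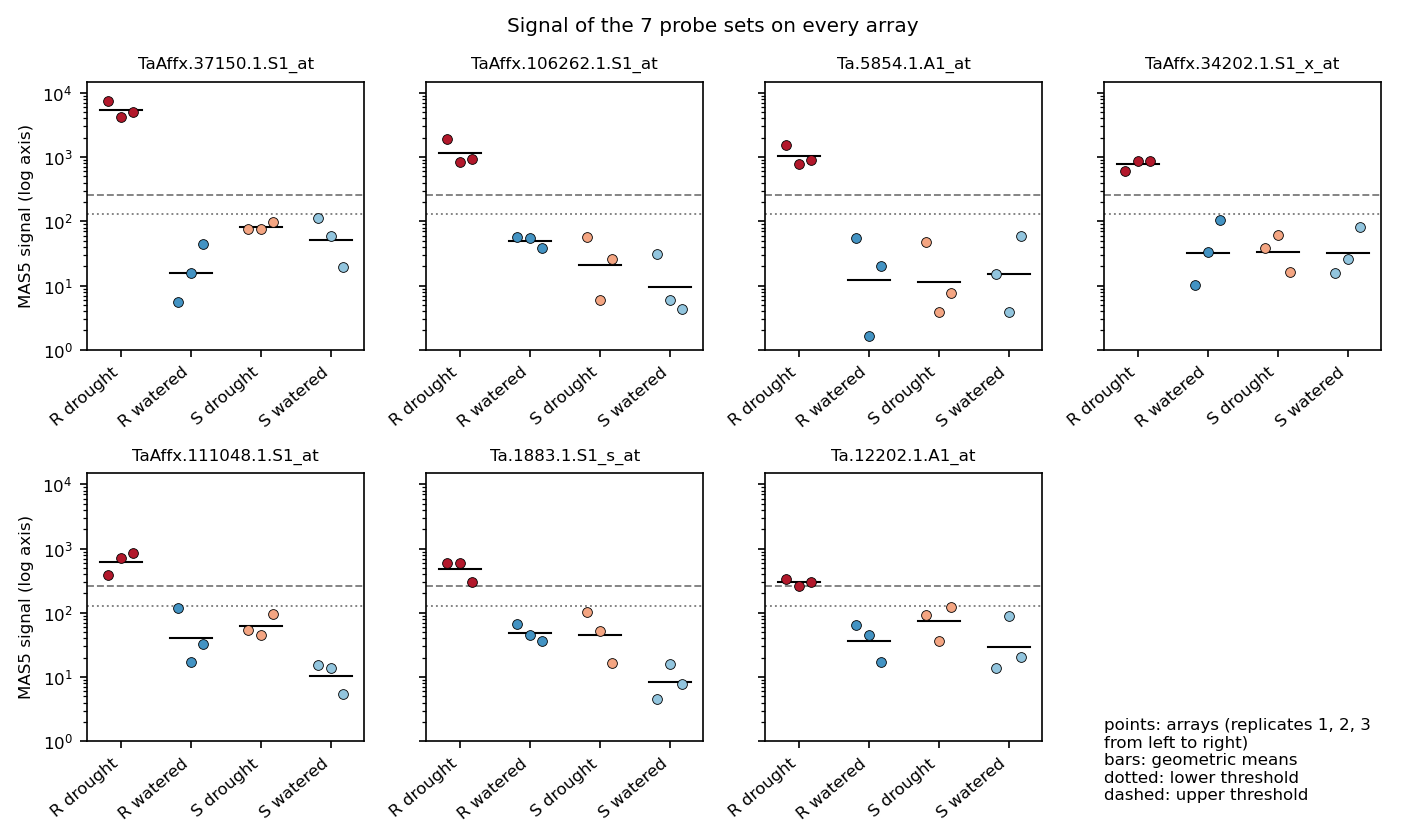
MAS5 signal (log axis) of each of the 7 probe sets on the 12 arrays, by group, with points for arrays in the order of replicates 1, 2 and 3, black bars for geometric means, and the thresholds of 129 (dotted) and 258 (dashed). TaAffx.37150.1.S1_at lies at 4246 to 7349 in R drought, while Ta.12202.1.A1_at lies just above the upper line at 265 to 338.

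Among the 3 R drought arrays, the highest signal of a probe set was 1.28 to 2.3 times its lowest, and the coefficient of variation was 12.2% to 48.5%, with a median of 33.7%. Replicate 1 was the highest in 4 of the 7 and the lowest in 2, replicate 2 the highest in 2 and the lowest in 4, and replicate 3 the highest in 1 and the lowest in 1. The geometric means in R drought ran between 300.2 and 5408, with a median of 772. Over the 14414 probe sets with at least 258 on all 3 R drought arrays, the median geometric mean was 1310.3, and 1 of the 7 lay above it. Probe sets differ in how strongly they bind their targets, so this order is one of signal and not of transcript amount.

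On the 9 other arrays the 63 values of the 7 probe sets had a median of 35.8 and spanned 1.66 to 125. By group their median was 39.1 in R watered, 51.7 in S drought and 15.9 in S watered (21 values each). Over all 19902 probe sets below 129 on those 9 arrays, the same medians were 26.2, 16.1 and 15.7. The control probe sets that target no wheat transcript had medians of 25.8, 11.8 and 19.6 (69 values each). The brightest of the 9 arrays was an S drought array for 3 of the 7, an R watered array for 2 and an S watered array for 2.

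Differences among the other 3 groups are given for the 7 as a description, since the rule held all these values below 129 and so largely fixed whether a test could call them. A model of the 4 group means was fitted with limma to log2(signal + 16) of all 61115 probe sets. For S drought minus S watered, 15.5% of all probe sets were called at a Benjamini-Hochberg adjusted p of 0.05 (7.75% higher and 7.79% lower), but 204 of the 19902 probe sets held below 129 on the same 9 arrays. Of the 7, 0 were called and 2 had an unadjusted p under 0.05, and nothing is read from these counts. The fitted difference was above 0 for 6 of the 7, with a median of 0.56, beside a median of 0.01 and 50.6% above 0 over the 19902. It was highest for TaAffx.111048.1.S1_at, at 1.53, and for Ta.1883.1.S1_s_at, at 1.35.

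For R watered minus S watered, 4.2% of all probe sets were called (2.63% higher and 1.57% lower), but 66 of the same 19902. Of the 7, 0 were called by limma and 2 had an unadjusted p under 0.05, and again nothing is read from these counts. The fitted differences of the 7 spanned −1.01 to 1.36 with a median of 0.17 and were above 0 for 5, beside a median of 0.29 and 68.4% above 0 over the 19902. All of these are differences between signals below the control level, so their sizes are not exact.

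Names on this array group probe sets into clusters of similar sequence by their first number, and the 7 belong to 7 clusters. A total of 4 carry the prefix TaAffx and 3 the prefix Ta, and 57.1% TaAffx compares with 48.6% among all probe sets and 23.1% among those at or above 258 on all 3 R drought arrays. The letter code was S1 for 5 and A1 for 2, against 82.6% and 17.4% of all. The plain ending _at was held by 5 of the 7, against 79.2% of all. With 7 probe sets these shares rest on single counts.

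Only 2 other probe sets share a cluster with one of the 7, and both were higher in R drought. Their own values were not used to choose the 7, but their cluster partners were chosen as high on these same R drought arrays and dim on the others. The contrasts of these 2 with R drought are therefore a description and not an independent test. TaAffx.34202.1.S1_s_at, named like the _x_at probe set above apart from the ending, had 485, 451 and 361 signal in R drought, against 39.2, 38.3 and 36.9 in R watered, 170, 83.6 and 32.8 in S drought, and 28.4, 111 and 81.3 in S watered. Replicate 1 of S drought, at 170, is what kept it out of the 7. The 2 probe sets of this cluster may share probes, so they do not measure the transcript independently. Within Y12-3 it rose under drought by 3.04 ± 0.56 on the log2(signal + 16) scale (SE; limma adjusted p = 0.00066), at least 3.33-fold, in 3 of 3 arrays. Its log2 difference between the genotypes under drought was 2.20 ± 0.56 (adjusted p = 0.032). That call was lost without R drought replicate 1, 2 or 3 (adjusted p = 0.13, 0.11 and 0.06) or S drought replicate 2 or 3 (adjusted p = 0.091 and 0.15), with differences of 1.71 to 2.32. A pseudocount of 1 (2.45, adjusted p = 0.055) and scaling to the poly-A controls (2.17, adjusted p = 0.093) also ended it, and over all alternatives the adjusted p ran from 0.0026 to 0.15.

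Ta.5854.2.S1_at, which differs from Ta.5854.1.A1_at in the second number of its name, had 224, 109 and 161 in R drought, against 35, 2.51 and 26.1 in R watered, 13.1, 11.9 and 8.53 in S drought, and 4.6, 13.4 and 6.88 in S watered. Among its R drought arrays, replicate 1 was again the highest and replicate 2 the lowest, and 1 of the 3 lay below 129. It was higher in R drought by 2.36 ± 0.53 than in R watered (SE; limma adjusted p = 0.0036) and by 2.69 ± 0.53 than in S drought (adjusted p = 0.0058) on the log2(signal + 16) scale. Because most of these signals lie below the control level, the sizes are not exact, and with signals under 129 set to 129 both differences were 0.34 (adjusted p = 0.18 and 0.4).

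Both of these probe sets were called higher against R watered, where 7.87% of all probe sets were, and both against S drought, where 1.88% were. Both were reached through partners chosen on the same arrays, so nothing is read from these counts. For the interaction, the drought effect in R minus that in S, neither was called by limma, beside 0.0507% of all probe sets called higher. The interaction was 2.80 ± 0.79 for TaAffx.34202.1.S1_s_at (adjusted p = 0.19) and 2.18 ± 0.75 for Ta.5854.2.S1_at (adjusted p = 0.29), and both passed an unadjusted p of 0.05. With so few of all probe sets called, these missing calls cannot decide whether the drought response of the 2 differs between the genotypes.

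**Figure D2:**
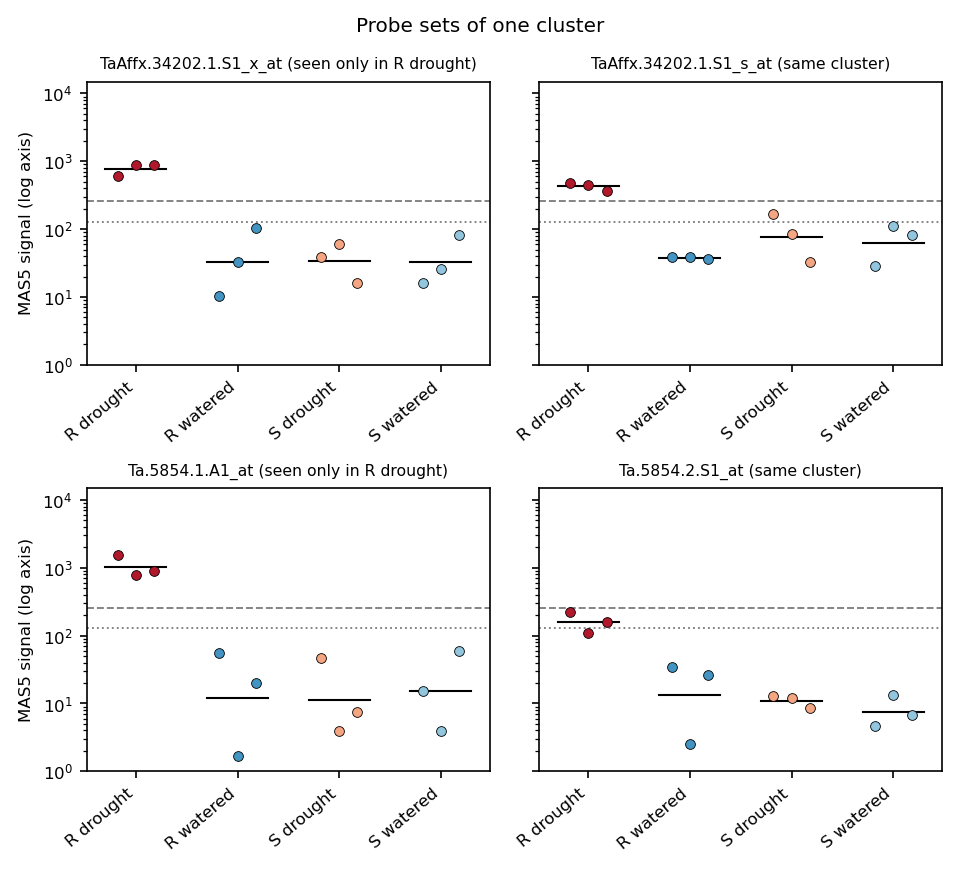
MAS5 signal (log axis) on the 12 arrays for the 2 clusters with more than 1 probe set, with the probe set seen only in R drought on the left and the other one of its cluster on the right, and thresholds of 129 (dotted) and 258 (dashed). In the left panels the rule fixed that the 3 R drought arrays lie above the 9 others. On the right, Ta.5854.2.S1_at stays under 258 at 109 to 224 in R drought.

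The same rule was applied to each other group of 3 arrays. It found 26 probe sets for R watered (0.0425%), 8 for S drought (0.0131%) and 13 for S watered (0.0213%). R drought with 7 thus had the fewest on the deposited scale. The pools below 129 on the 9 other arrays were unequal, with 19902 for R drought, 26834 for R watered, 20210 for S drought and 20484 for S watered. Of these pools, 0.0352%, 0.0969%, 0.0396% and 0.0635% met the rule in that order. Geometric means spanned 300.2 to 5408 in R drought, 283 to 1602 in R watered, 308 to 1783 in S drought and 307 to 578 in S watered. TaAffx.37150.1.S1_at was thus brighter in its group than any probe set found for the other 3 groups was in its own. A geometric mean over 1000 was reached by 3 of 7 in R drought, 3 of 26 in R watered, 1 of 8 in S drought and 0 of 13 in S watered. The dimmest array of the group over the floor of 129, a lower bound set by the values the rule used, had a median of 4.65 in R drought, 2.59 in R watered, 2.32 in S drought and 2.3 in S watered. Its highest values were 32.9, 5.73, 4.39 and 3.61 in that order of groups. The brightest were Ta.15159.1.S1_at for R watered (4920.4, 739 and 1130.1, at most 102 elsewhere), Ta.24247.1.A1_at for S drought (2789.5, 558 and 3639.6, at most 124) and Ta.13705.1.A1_at for S watered (811, 731 and 325, at most 114).

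The order of the 4 groups depended on the scaling of the arrays. With median scaling the counts were 13 for R drought, 8 for R watered, 8 for S drought and 17 for S watered. With the hybridization controls set equal, R drought had the most, with 23 against 6 for R watered, 4 for S drought and 10 for S watered. With the poly-A controls set equal, the counts were 6, 16, 4 and 5 in the same order. Leaving out R drought replicate 3 gave 14 for R drought, leaving out R watered replicate 2 gave 75 for R watered, and leaving out S watered replicate 1 gave 22 for S watered. Without R watered replicate 3 the counts were 10 for R drought, 28 for R watered, 8 for S drought and 18 for S watered. S drought had 13 without R drought replicate 3 or R watered replicate 1, and 14 without S watered replicate 3. All 7 probe sets met the rule with the hybridization controls, 6 with median scaling and with quantile normalization (Ta.12202.1.A1_at did not), and 4 with the poly-A controls. The 4 were TaAffx.37150.1.S1_at, TaAffx.106262.1.S1_at, Ta.5854.1.A1_at and TaAffx.34202.1.S1_x_at.

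**Figure D3:**
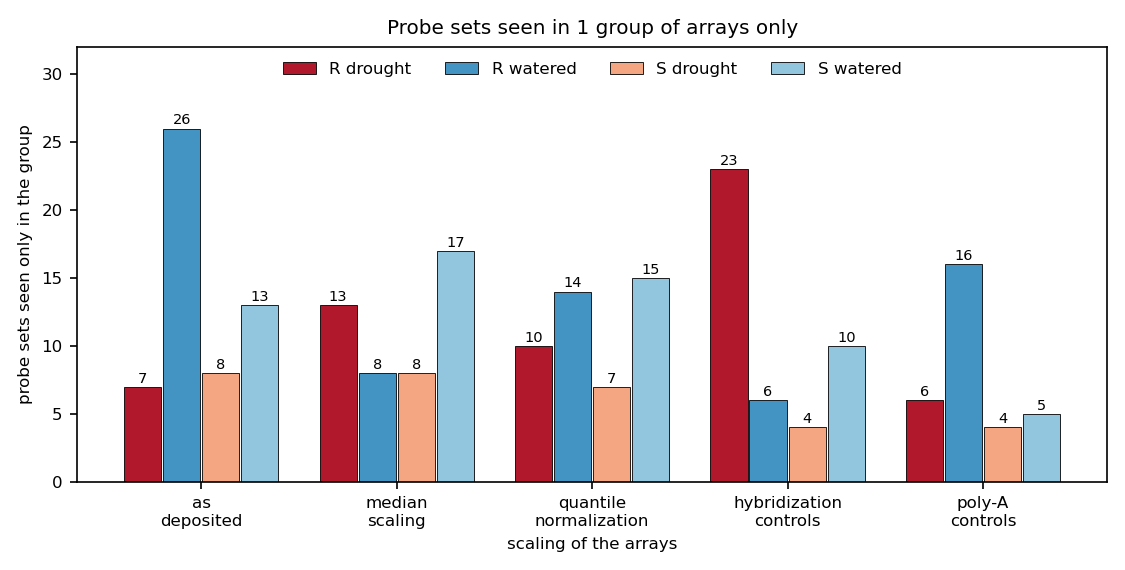
Number of probe sets seen in 1 group of 3 arrays only (bars, from 0), for R drought, R watered, S drought and S watered, with the signals as deposited and under 4 other scalings. R drought has 7 as deposited, the fewest of the 4 groups, and 23 with the hybridization controls, the most.

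Of 226 probe sets with at least 258 on all R drought arrays and below 129 on all R watered arrays, 120 were also at least 258 on all S drought arrays, 99 were between or mixed there, and 7 were below 129 on all 3. Those 7 are the ones described here, since none was removed by the S watered arrays. Of 267 probe sets at least 258 in R drought and below 129 in S drought, 164 were at least 258 on all R watered arrays, 96 were between or mixed, and 7 were below 129. Among probe sets that were at least 258 or below 129 throughout each group, 102 were seen in both Y12-3 groups only, 68 in both drought groups only and 10765 in all 4 groups.

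The members nearest the upper threshold had lowest R drought signals of 265 (Ta.12202.1.A1_at), 306 (Ta.1883.1.S1_s_at) and 388 (TaAffx.111048.1.S1_at). Just below it were TaAffx.123638.2.S1_at with 252, Ta.19158.1.A1_at with 237 and Ta.12067.3.A1_at with 218, each from R drought replicate 3. The members nearest the lower threshold had highest other signals of 125 (Ta.12202.1.A1_at), 118 (TaAffx.111048.1.S1_at) and 111 (TaAffx.37150.1.S1_at). Just past it were Ta.29441.2.A1_at with 133, TaAffx.74071.1.S1_at with 143 and Ta.8681.1.A1_at with 147.

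A further 13 probe sets failed on exactly 1 of the 9 other arrays, 7 of them on an R watered array, 6 on an S drought array and 0 on an S watered array. Another 8 failed on exactly 1 R drought array, which was replicate 3 for 7 and replicate 1 for 1. Replicate 3 also had the lowest median signal of all arrays, 58.6, and its part in these failures was not tested.

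A ratio in place of the lower threshold, chosen after the data were seen, widened the set. At least 258 on all 3 R drought arrays and at least 2-fold above every other array was met by 133 probe sets in R drought, against 119 in R watered, 69 in S drought and 98 in S watered. The 133 hold the 7 and 126 that reached 129 on some other array.

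**Figure D4:**
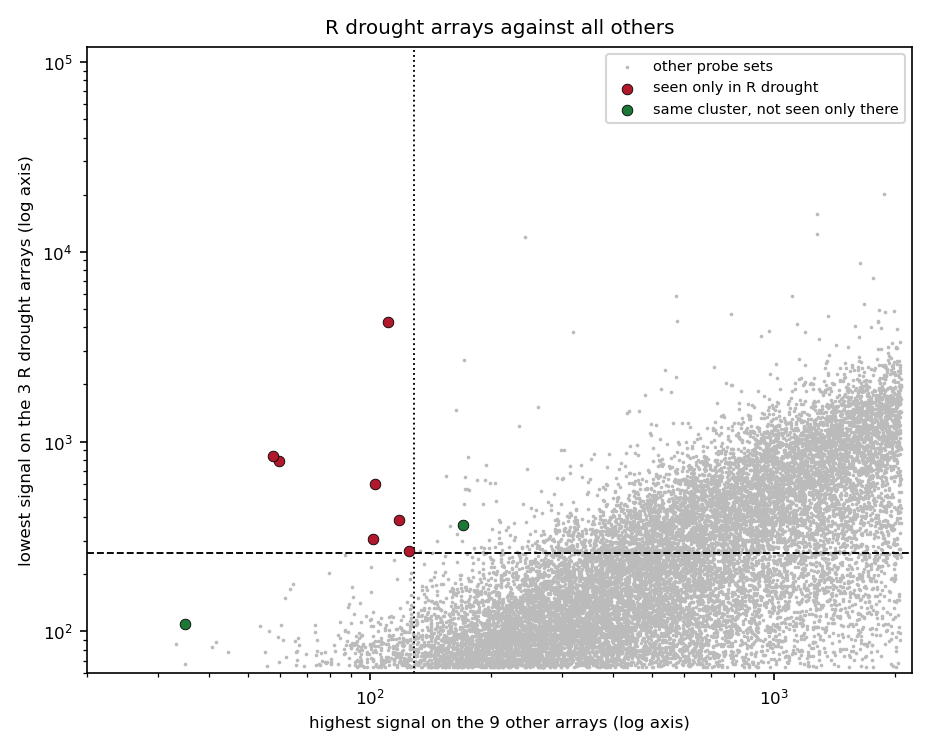
Lowest signal on the 3 R drought arrays against highest signal on the 9 other arrays (both log axes) for each probe set in the plotted range, with the thresholds of 129 (dotted) and 258 (dashed). The 7 probe sets (red) fill the upper left field, the 2 others of their clusters (green) lie outside it, and the field also borders on grey points just past either line.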

How the data were processed

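One array per sample measured biotin-labelled total RNA in 4 groups of 3, taken from the sample titles with their replicate numbers. Per the submitters' processing notes the authors used MAS5, and the deposited values are its linear signal intensities. Its version and target: not given in the sources used here. Without the highest and lowest 2%, every array averaged 500.1 or 500.2, a common scale. No missing value was found. Arrays are limited in precision by their number.

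From 61290 probe sets, 111 AFFX controls and 64 RPTR reporters were left out. The rule was applied to the deposited signals. For tests, log2(signal + 16) was fitted without a filter, because a filter would admit the members through the group where they are high, with limma 3.58.1 (lmFit, eBayes with trend, 4 group means) in R 4.3.3. Calls are at a Benjamini-Hochberg adjusted p of 0.05 over all 61115. The fit was tested on simulated data. Tables and figures used Python 3.11.15 and matplotlib 3.10.9. Gene names came from the platform annotation of 2007; no coordinates or sequences are given.

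Named were the members, the probe sets of their clusters, those nearest each threshold and the brightest of each other group. Members, lists and tests were chosen with earlier results of these data known. Alternatives were other thresholds, scalings, pseudocounts and filters, no trend, signals under 129 set to it, a replicate block and each array left out. Hybridization and poly-A control scaling and the ratio rule were added after seeing the data.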

Additional observations from a re-analysis of the deposited data

How the results depend on the processing

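The counts of probe sets seen in 1 group only moved with most settings, given here for R drought, R watered, S drought and S watered in that order. Both thresholds halved gave 5, 11, 4 and 8, and both multiplied by 2 gave 20, 22, 12 and 6. These were largely other probe sets. Of those found at 258 and 129, 2, 0, 2 and 2 remained with both halved, and 4, 4, 2 and 0 with both multiplied by 2. TaAffx.37150.1.S1_at, the brightest in R drought, was lost with both halved. Its highest signal outside R drought, 111, lay above the halved lower threshold of 64.5. The upper threshold multiplied by 2 gave 4, 4, 2 and 0, and lowered to 129 it gave 30, 163, 50 and 74. Median scaling gave 13, 8, 8 and 17, quantile normalization 10, 14, 7 and 15, hybridization control scaling 23, 6, 4 and 10, and poly-A control scaling 6, 16, 4 and 5. The ratio rule gave 133, 119, 69 and 98. With 1 array left out, the counts ran from 7 to 14, 26 to 75, 8 to 14 and 13 to 22; the arrays behind the shifts are named with the counts above. The cause of these shifts was not tested.

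For S drought minus S watered, 0 of the 7 were called except with pseudocount 1 and the filter on the mean, with 1 each. Over all probe sets these settings called 9150 of 61115 and 10325 of 30557, in either direction. For R watered minus S watered, 0 of the 7 were called under all alternatives, beside 1399 to 3499 of all probe sets. The rule limits both counts, and the filter admits a member through R drought, where it was chosen to be high. Of the 2 other probe sets of the clusters, 2 were called higher against R watered. With the filter on the mean (1 was tested) and with signals under 129 set to it, 1 was called. Those settings called 5267 of 30557 and 4607 of 61115 probe sets higher. Against S drought, 2 were called. Only 1 was under each of the filter on the mean, signals set to 129, pseudocount 1 and poly-A control scaling. It was 1 to 2 with 1 array left out. The filter on the mean called 1353 of 30557 probe sets higher. Signals set to 129, pseudocount 1 and poly-A control scaling called 819, 1070 and 719 of 61115 higher. Neither was called for the interaction under any alternative. Replicate numbers did not pair the samples: deviations of same-numbered arrays correlated at −0.105 to 0.116. With the replicate block these 5 counts were 0, 0, 2, 2 and 0, as without it. Beside them, 9173 and 2396 of all 61115 probe sets were called, and 4702, 1135 and 31 were called higher. Members and partners were chosen on these same arrays, so nothing is read from the counts.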

Other observations

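The largest ratio of the dimmest R drought array to the brightest other array belonged to a probe set outside the rule, chosen here after its values were seen. Ta.25876.1.A1_at had 22517, 11937 and 14386 signal in R drought, against 73.3, 179 and 242 in R watered, 143, 55.4 and 82.0 in S drought, and 15.9, 28.1 and 50.0 in S watered. Its ratio was 49.2, and 3 of its 9 other arrays lay above 129. Ta.5720.1.S1_at, with a ratio of 15.7, had 3135, 3609 and 2698 in R drought and reached 171 on R watered replicate 3. TaAffx.55601.1.S1_at, with a ratio of 12.3, had 20052, 15804 and 18501 in R drought and reached 1283 on S drought replicate 3. TaAffx.107453.1.S1_at had 5135, 4351 and 3769 in R drought, against 319, 243 and 175 in R watered, 124, 44.0 and 85.7 in S drought, and 26.6, 4.59 and 1.75 in S watered. Its R watered arrays all lay above its S watered arrays. Ta.438.3.S1_at and Ta.2854.2.S1_at, with ratios of 10.7 and 10.2, reached 1872 and 574 on R watered replicate 1.

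Of the 133 probe sets at least 2-fold above every other array, 3 are paired with a gene. Ta.24427.1.S1_at, paired with LOC606366, had 22921, 9987 and 2191 in R drought, against 17.5, 77.6 and 96.2 in R watered, 573, 350 and 114 in S drought, and 158, 59.0 and 13.7 in S watered. Its highest R drought array was 10.5 times its lowest. A second probe set of LOC606366, Ta.3828.2.S1_x_at, had 16118, 8779 and 10427 in R drought and 1638, 1113 and 1629 in S drought. In R watered it had 464, 216 and 658, and in S watered 18.2, 141 and 288. Ta.5480.1.S1_x_at, paired with LOC100037659, had 6164, 5791 and 5329.5 in R drought and 1623, 821 and 1672 in S drought. In R watered it had 1141, 657 and 677, and in S watered 135, 547 and 137.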
